A study of Homo sapiens with 8 samples.

Results

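The 40 nuclear genes described here encode subunits of complexes II to V of the mitochondrial respiratory chain, together with the ATP synthase inhibitor ATP5IF1 and the supercomplex factor COX7A2L. They were chosen by a fixed list of gene names, 4 for complex II, 9 for complex III, 11 for complex IV and 16 for complex V, and all 40 were found among the 62703 genes of the count table. The data were Parse Evercode single-cell RNA counts of HepaRG, a human hepatic cell line bought as terminally differentiated cells, grown for 7 days on collagen and then treated for 24 h. The treatments compared were rotenone, an inhibitor of complex I, at 0.2 and 0.4 µM, cycloheximide, an inhibitor of translation, at 0.2, 2 and 20 µM, etoposide, a topoisomerase II poison, at 0.25, 2.5 and 25 µM, and tunicamycin, which blocks N-glycosylation, at 0.001, 0.01 and 0.1 µM. Brefeldin A, which blocks transport out of the endoplasmic reticulum, was used at 0.001, 0.01 and 0.1 µM, and tert-butylhydroquinone (tBHQ), an activator of NRF2, at 3, 30 and 300 µM. Every treated well shared the vehicle of the control cells, 0.1% DMSO. The cell names carry a run number that no source used here defines. UMIs (unique molecular identifiers, each counting 1 captured RNA molecule) were summed over the cells of 1 treatment and run, here called a culture, and are given as CPM, a gene's UMIs divided by all UMIs of the culture and scaled to the customary common total.

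The respiratory chain passes electrons from NADH and succinate to oxygen and pumps protons across the inner mitochondrial membrane. Complex II oxidises succinate and is encoded wholly in the nucleus, complex III reduces cytochrome c, complex IV passes the electrons to oxygen, and complex V, the ATP synthase, uses the proton gradient to make ATP. Complexes III, IV and V each join nuclear subunits with others translated from mitochondrial DNA, so RNAs of both genomes are needed for 1 complex. Hepatocytes rely on this chain for the ATP that gluconeogenesis and urea synthesis use, and rotenone stops electrons at complex I, the entry from NADH, while those from succinate enter at complex II.

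Rotenone at 0.4 µM was present in 2 cultures (runs 5 and 6), DMSO in 4 (runs 3 to 6), and cycloheximide, etoposide and tunicamycin in 2 at each dose (runs 3 and 4). The other conditions had 1 culture, rotenone at 0.2 µM in run 5, and brefeldin A and tBHQ in run 4. Cultures held 37 to 1434 cells after filtering and 1741603 to 97081214 UMIs. The study states 1 biological replicate per condition for its main experiment, on another platform (TempO-LINC), and gives no number for the Parse cultures. The names of the cells also hold a replicate number, without saying what was repeated. The p-values therefore measure the spread between these cultures, which may be technical. The DMSO culture of run 4 stood apart: mitochondrially encoded genes gave 3.57% of its UMIs, against 13 to 14.4% in the other 3, and its cells had a median of 17080 UMIs, against 29790 to 79381. Of 12063 barcodes, 822 occurred in 2 or more of the 8 deposited sublibraries, which are aliquots of 1 pool of cells, so sublibraries were not used as replicates. Of 10 hepatocyte markers, all 10 were detected in every DMSO culture, with a summed level of 7441 to 21920 CPM, most of it ALB (5048 to 16059 CPM), against 121 to 239 CPM for 7 mesenchymal markers, of which COL1A2 was at 0.

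Promoters are shown first because NRF1, GABPA (NRF-2) and YY1 are textbook regulators of nuclear respiratory genes. The part of these factors in the changes described below was not tested. RefSeq windows (GRCh38.p14) from 250 bases before to 50 after the transcription start were at hand for 32 of the 40 genes. The 8 others were COX6C, SDHC, UQCRB, ATP5MF, ATP5F1B, CYC1, ATP5MC3 and ATP5F1D. Each window was searched on both strands for GCATGCGC (NRF1), CCGGAAG (GABPA), AAGATGGC (YY1) and TCAAGGTCA (ESRRA), and the first of these can overlap itself, so that matches 2 bases apart in SDHD and ATP5F1C are 1 palindromic stretch. A gene with several windows was counted once, if any of them matched. The GABPA letters were in 15 of 32 members (46.9%), against 12.2% of 27305 genes with a window. The NRF1 letters were in 8 (25.0%, against 3.68%), those of YY1 in 5 (15.6%, against 3.52%) and those of ESRRA in 1, SDHD (3.12%, against 0.432%). At least 1 of the 4 was present in 20 members (62.5%), against 17.96% of all genes. These are matches of letters and not tested sites. The windows below are those of SDHB, with 3 different motifs, and of COX5B and COX6A1, with 3 matches each. That of UQCRC2, which was called lower with 0.4 µM rotenone, has none. COX7B, COX5A and ATP5F1E have none either and were called higher, while ATP5PF, with 3 different motifs, was not called. The windows are read along the gene's own strand, with the matches in capitals.
SDHB, chr1:17053983-17054282, minus strand: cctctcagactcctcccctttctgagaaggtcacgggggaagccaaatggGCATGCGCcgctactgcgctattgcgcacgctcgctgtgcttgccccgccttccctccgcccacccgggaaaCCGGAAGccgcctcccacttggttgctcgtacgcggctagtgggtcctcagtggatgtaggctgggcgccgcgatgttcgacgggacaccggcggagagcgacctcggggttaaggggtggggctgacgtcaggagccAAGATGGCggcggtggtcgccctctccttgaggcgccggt
COX5B, chr2:97645812-97646111, plus strand: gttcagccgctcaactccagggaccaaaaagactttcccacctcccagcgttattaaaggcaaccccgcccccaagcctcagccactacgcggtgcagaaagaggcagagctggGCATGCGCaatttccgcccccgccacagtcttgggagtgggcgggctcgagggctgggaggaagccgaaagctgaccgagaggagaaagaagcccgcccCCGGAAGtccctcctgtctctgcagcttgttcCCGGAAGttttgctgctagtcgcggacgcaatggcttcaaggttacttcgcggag
COX6A1, chr12:120437863-120438162, plus strand: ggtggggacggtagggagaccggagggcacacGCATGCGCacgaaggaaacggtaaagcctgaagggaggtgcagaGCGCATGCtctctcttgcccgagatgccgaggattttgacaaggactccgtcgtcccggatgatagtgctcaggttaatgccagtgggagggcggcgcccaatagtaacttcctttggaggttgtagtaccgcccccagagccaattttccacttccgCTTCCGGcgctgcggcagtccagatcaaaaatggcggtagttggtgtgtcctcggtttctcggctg
UQCRC2, chr16:21953111-21953410, plus strand: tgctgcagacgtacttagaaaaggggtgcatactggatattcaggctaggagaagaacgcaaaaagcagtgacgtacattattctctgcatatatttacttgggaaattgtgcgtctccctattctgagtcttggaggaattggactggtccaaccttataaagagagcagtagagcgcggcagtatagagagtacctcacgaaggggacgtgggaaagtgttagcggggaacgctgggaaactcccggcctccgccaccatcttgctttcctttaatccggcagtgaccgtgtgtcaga
In COX6A1 the second NRF1 match and the GABPA match lie on the other strand, so their reverse complement is what stands in capitals.

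Rotenone at 0.4 µM raised most of the nuclear genes of complexes II to V. Of the 40 genes, 27 were higher than in DMSO (67.5%) and 2 were lower, SDHC and UQCRC2, while 11 did not pass the test. The test was edgeR's quasi-likelihood test on UMIs summed per culture, at a Benjamini-Hochberg adjusted p of 0.05 over all 19831 genes tested, of which 19.1% were called higher and 42.2% lower. The members' median log2 fold change was 0.81, against -0.56 over all genes tested. Each gene's log2 ratio to the DMSO culture of the same run gave medians of 0.69 in run 5 and 0.61 in run 6. Of the members, 36 were higher in run 5 and 35 in run 6, against 36.93% and 46.15% of all genes with enough UMIs. In both runs 34 members were higher and 3 lower. In 32 members both rotenone cultures lay above all 4 DMSO cultures, and in 2 below them (22.2% and 46.4% of all genes tested). With run as a block the test called 15 members higher and 1 lower, against 14.6% and 34.5% of all genes tested. These counts depend on the scaling by total UMIs. With TMM factors the median of all genes was -0.10 instead of -0.56, and 47.8% instead of 31.2% of all calls were higher. Then 36 members were called higher and 0 lower, against 28.1% and 30.6% of all genes tested.

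Summed over the 40 genes, the level was 3517 and 3574 CPM in the cultures with 0.4 µM rotenone, against 1785, 1554, 2115 and 2130 CPM in DMSO runs 3 to 6. Both rotenone cultures were above all 4 DMSO cultures, and the lowest DMSO value was that of run 4. Cell by cell, the 40 genes gave a median of 0.338% and 0.344% of a cell's UMIs with rotenone, against 0.172%, 0.145%, 0.211% and 0.216% in DMSO. Cells with 0.4 µM rotenone in run 5 also held more UMIs, a median of 184485 against 79381 in DMSO of that run, and in run 6 45112.5 against 32905. The part of this depth in the result was not tested. Fewer cells of a type and less RNA per cell cannot be told apart in such sums.

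**Figure D1:**
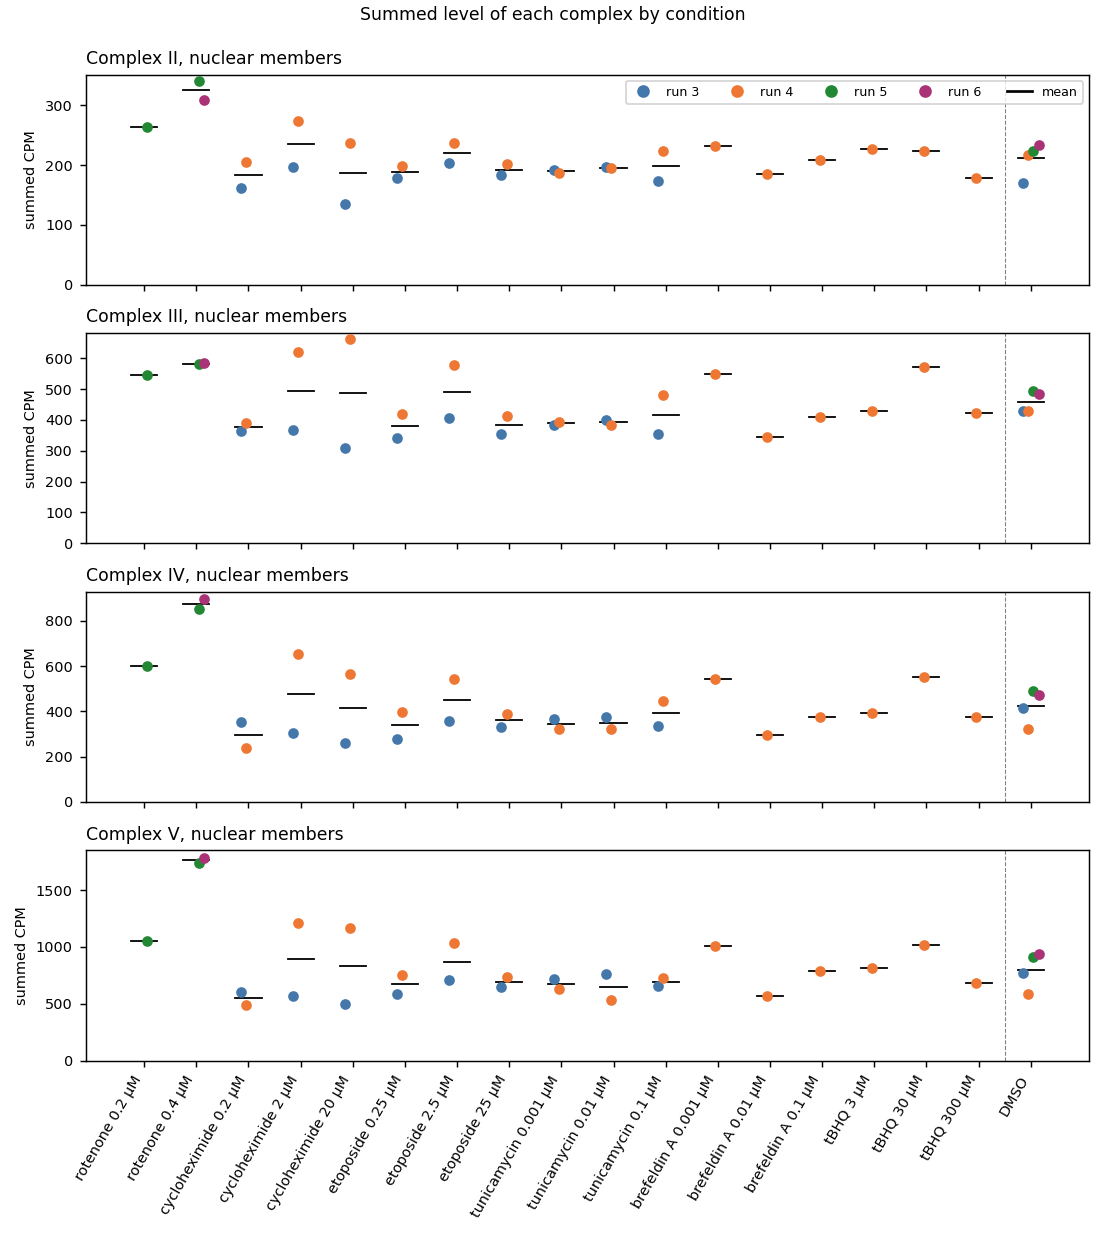
Summed CPM of the nuclear members of each complex (vertical axes) in every culture, by condition (horizontal axis), with DMSO at the right; points are cultures coloured by run and bars are means. The 2 cultures with 0.4 µM rotenone lie above every DMSO culture in all 4 panels, by most in complexes IV and V, and the points of runs 3 and 4 lie far apart at 2 and 20 µM cycloheximide.

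Complex II consists of 4 nuclear subunits, and 3 of them rose with 0.4 µM rotenone while SDHC fell. The summed level was 326 ± 22.3 CPM with rotenone (SD, n = 2) and 211 ± 28.0 CPM in DMSO (SD, n = 4). SDHB, the iron-sulphur subunit, was at 90.2 and 83.5 CPM with rotenone, against 41.5, 50.3, 47.7 and 50.8 CPM in DMSO runs 3 to 6. The 2 sets of cultures did not overlap, and the log2 fold change was 0.87 ± 0.19 (SE, edgeR adjusted p = 0.00168). SDHD, a membrane anchor, was at 101 and 97.8 CPM with rotenone, against 45.3, 60.9, 57.3 and 67.6 CPM in DMSO (log2 fold change 0.79 ± 0.20, edgeR adjusted p = 0.00518). SDHA, the flavoprotein that oxidises succinate, was at 124 and 112 CPM with rotenone, against 54.0, 72.3, 82.3 and 81.3 CPM in DMSO (0.70 ± 0.21 on the log2 scale, edgeR adjusted p = 0.0126). Reads of SDHA are uncertain, because its 6 annotated pseudogenes held 77.3% of the UMIs given to SDHA and these copies together. With run as a block none of the 4 complex II genes was called (edgeR adjusted p = 0.0546 for SDHB, 0.106 for SDHD, 0.206 for SDHA and 0.0994 for SDHC).

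SDHC, the other membrane anchor (ENSG00000143252, chr1:161314381-161363206 in GRCh38), went the opposite way to its partners. It was at 26.2 and 16.7 CPM with 0.4 µM rotenone, against 29.7, 33.9, 37.1 and 33.6 CPM in DMSO, so that every rotenone value lay below every DMSO value. The log2 fold change was -0.63 ± 0.24 (SE, edgeR adjusted p = 0.0391), with -0.50 within run 5 and -1.01 within run 6. The call was lost with TMM factors (-0.18, edgeR adjusted p = 0.539), and held in only 1 of the 6 fits that left out 1 culture.

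With total UMIs, complex III had the most mixed response, with 5 of 9 members higher, 1 lower and 3 not past the test. The DESeq2 test, with its own size factors, called 8 of the 9 higher, all but UQCRC2. The summed level of complex III was 583 ± 0.976 CPM with 0.4 µM rotenone and 460 ± 34.2 CPM in DMSO, the smallest relative gap of the 4 complexes. UQCRH, the hinge protein that binds cytochrome c1, was at 96.5 and 115 CPM with rotenone, against 45.3, 54.4, 44.9 and 51.9 CPM in DMSO. Its log2 fold change of 1.11 ± 0.19 (SE, edgeR adjusted p = 0.000343) was similar within run 5 (1.10) and run 6 (1.15). UQCR10, a small structural subunit, was at 36.5 and 33.6 CPM with rotenone, against 16.6, 8.78, 20.5 and 23.7 CPM in DMSO (log2 fold change 0.99 ± 0.30, edgeR adjusted p = 0.0132).

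UQCRC2, a core subunit that is not part of the redox path, was the complex III member with the highest CPM in DMSO and the one that fell. It was at 107 and 87.7 CPM with 0.4 µM rotenone, against 167, 203, 182 and 177 CPM in DMSO, with no overlap between the groups. The log2 fold change was -0.90 ± 0.20 (SE, edgeR adjusted p = 0.00213), with -0.77 within run 5 and -1.01 within run 6. The gene (ENSG00000140740) lies at chr16:21953288-21983660 in GRCh38. Its call held in all 6 fits that left out 1 culture and with run as a block (-0.89, edgeR adjusted p = 0.0344). With TMM factors, which moved the median of all genes up, it was still negative at -0.45 but missed the threshold (edgeR adjusted p = 0.0537).

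Its partner UQCRC1, the other core subunit, went up: 128 and 141 CPM with rotenone, against 69.9, 61.2, 86.2 and 82.8 CPM in DMSO (log2 fold change 0.84 ± 0.20, edgeR adjusted p = 0.00323). UQCRB, which helps to form the ubiquinone site (0.85), and UQCRFS1, the Rieske iron-sulphur protein (0.78), also passed the test, both with all rotenone values above all DMSO values. Cytochrome c1, encoded by CYC1, was at 34.2 and 34.3 CPM with rotenone, against 25.1, 19.0, 37.4 and 28.4 CPM in DMSO, and the groups overlapped (0.30 ± 0.26, edgeR adjusted p = 0.332). UQCRQ at 0.62 and UQCR11 at 0.15 on the log2 scale did not pass the test. TMM factors brought CYC1, UQCRQ and UQCR11 past it (edgeR adjusted p = 0.0317, 0.0056 and 0.0472). With run as a block UQCRH was the 1 complex III gene called higher and UQCRC2 the 1 called lower.

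In complex IV all 11 members rose with 0.4 µM rotenone, and in all 11 both rotenone cultures lay above all 4 DMSO cultures. The summed level was 875 ± 30.4 CPM with rotenone and 424 ± 75.7 CPM in DMSO, and log2 fold changes ran from 0.71 (COX5B) to 1.47 (COX7B). COX7B, a small membrane subunit needed for assembly, was at 94.0 and 125 CPM with rotenone, against 38.1, 27.5, 49.0 and 41.3 CPM in DMSO (1.47 ± 0.23, edgeR adjusted p = 0.000184). Within the runs its ratio was 0.94 in run 5 and 1.59 in run 6. COX6A1, the liver-type form of a nuclear subunit of the enzyme's dimer, was at 50.2 and 52.1 CPM with rotenone, against 22.4, 12.9, 25.0 and 19.5 CPM in DMSO (1.33 ± 0.25, edgeR adjusted p = 0.000585). COX6B1, which sits at the face that binds cytochrome c, was at 63.6 and 70.0 CPM with rotenone, against 24.9, 26.6, 33.5 and 27.0 CPM in DMSO (1.25 ± 0.20, edgeR adjusted p = 0.000223).

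COX4I1, the largest nuclear subunit and a regulator of the enzyme, had the highest CPM of complex IV in DMSO. It was at 131 and 139.5 CPM with 0.4 µM rotenone, against 78.4, 51.5, 92.6 and 89.0 CPM in DMSO, a log2 fold change of 0.79 ± 0.23 (edgeR adjusted p = 0.0108). The other members past the test were COX5A at 1.16, COX6C at 1.12, COX7A2 at 1.01, COX8A at 1.01, COX7C at 0.77 and COX5B at 0.71 on the log2 scale. COX7A2L, which links complexes III and IV into supercomplexes, changed by 1.10, with 47.1 and 61.3 CPM with rotenone, against 21.4, 24.6, 27.2 and 28.0 CPM in DMSO. For COX6C the log2 ratio was 1.32 within run 5 and 0.75 within run 6, so the larger one was in run 5, the reverse of COX7B. With run as a block 7 of the 11 were called higher, and COX4I1, COX5B, COX7C and COX8A were not.

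**Figure D2:**
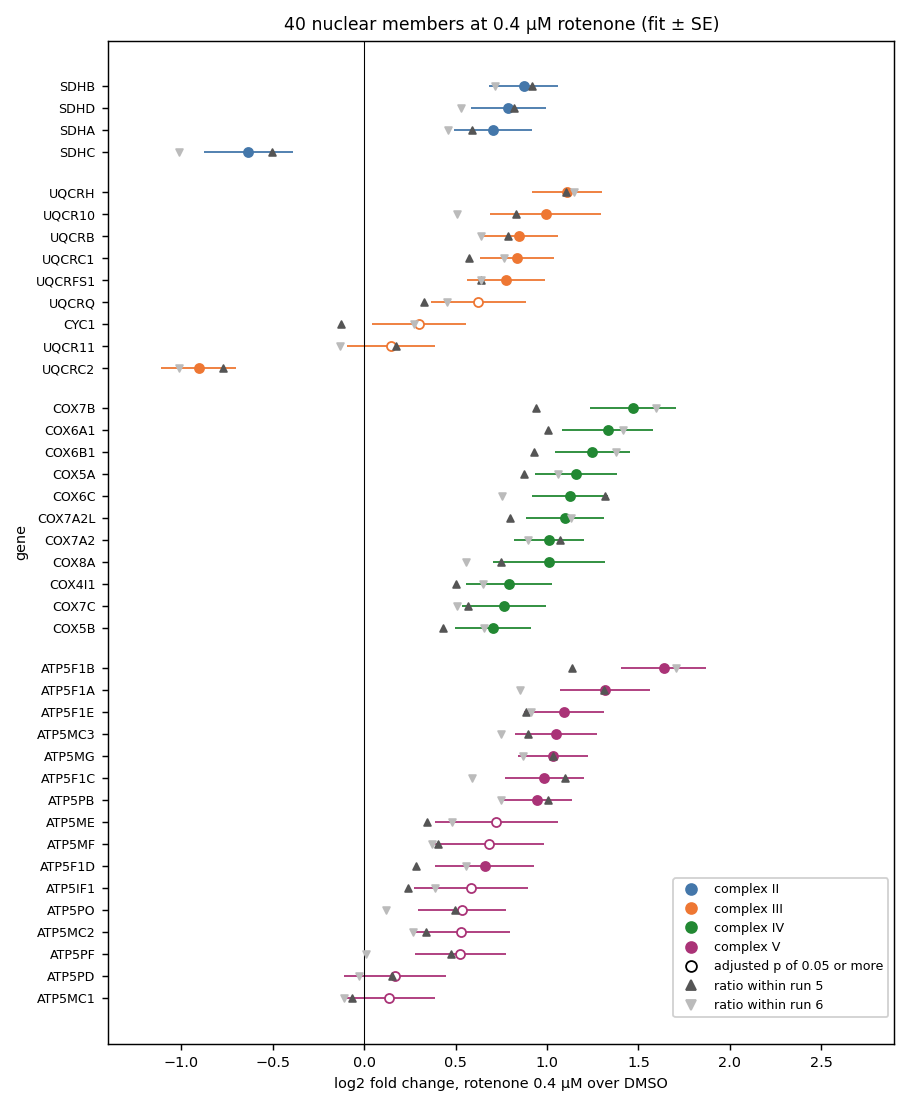
Log2 fold change of CPM for each of the 40 genes at 0.4 µM rotenone over DMSO (horizontal axis), by gene and complex (vertical axis), with the standard error of the fit as bars and filled circles past the test; triangles are ratios to the DMSO culture of run 5 or of run 6. All 11 complex IV genes lie at 0.71 or above, while SDHC (-0.63) and UQCRC2 (-0.90) are the filled circles below 0.

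With total UMIs, complex V rose in part: 8 of its 16 members were called higher, none lower, and 8 did not pass the test. The DESeq2 test, with its own size factors, called 15 of the 16 higher. The summed level was 1762 ± 31.2 CPM with 0.4 µM rotenone and 801 ± 162 CPM in DMSO. The catalytic core led. ATP5F1B, the catalytic β subunit (ENSG00000110955, chr12:56638175-56645984 in GRCh38), was at 484 and 634 CPM with rotenone, against 170.5, 132, 220.4 and 194 CPM in DMSO. Both rotenone values exceeded the highest DMSO value more than 2-fold, and the log2 fold change of 1.64 ± 0.23 (SE, edgeR adjusted p = 7.85e-05) was the largest of the 40 genes. ATP5F1A, the α subunit, was at 347 and 327 CPM with rotenone, against 129.7, 89.3, 139.6 and 181 CPM in DMSO (1.32 ± 0.25, edgeR adjusted p = 0.000584). ATP5F1E, the ε subunit of the central stalk, was at 70.6 and 71.4 CPM with rotenone, against 31.9, 24.3, 38.3 and 38.0 CPM in DMSO (1.09 ± 0.22, edgeR adjusted p = 0.000973).

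Of the rest of the stalk and the motor, ATP5F1C, the γ subunit (0.99), ATP5MG, the g subunit of the membrane part (1.03), and ATP5PB, the b subunit of the outer stalk (0.95), passed the test with no overlap of cultures. ATP5F1D, the δ subunit, passed it narrowly (0.66 ± 0.27, edgeR adjusted p = 0.0496), and in only 1 of the 6 fits that left out 1 culture. The outer stalk subunits ATP5PO (0.53), ATP5PF (0.53) and ATP5PD (0.17) and the membrane subunits ATP5ME (0.72) and ATP5MF (0.68) did not pass the test. ATP5IF1, which blocks the enzyme when it runs in reverse, was at 23.3 and 25.7 CPM with rotenone, against 16.7, 7.90, 19.7 and 19.7 CPM in DMSO, and also missed it (0.58 ± 0.31, edgeR adjusted p = 0.12). TMM factors brought ATP5PO, ATP5PF, ATP5ME, ATP5MF and ATP5IF1 past the test (edgeR adjusted p from 0.00506 to 0.0183), but not ATP5PD (0.0947). With run as a block 7 of the 8 members called with total UMIs were called higher, all but ATP5F1D.

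ATP5MC1, ATP5MC2 and ATP5MC3 encode 1 mature protein, the c subunit of the rotor ring, behind different import signals. ATP5MC3 was at 174 and 194 CPM with 0.4 µM rotenone, against 78.2, 67.6, 93.7 and 115 CPM in DMSO, and passed the test (1.05 ± 0.22, edgeR adjusted p = 0.00149). ATP5MC2 was at 34.2 and 26.4 CPM with rotenone, against 20.7, 13.5, 27.1 and 22.0 CPM in DMSO (0.53 ± 0.27, edgeR adjusted p = 0.107). ATP5MC1 was at 22.1 and 19.6 CPM with rotenone, against 15.5, 15.8, 23.2 and 21.2 CPM in DMSO (0.14 ± 0.25, edgeR adjusted p = 0.658), and its groups overlapped. ATP5MC3 was the only one of the 3 that passed the test with scaling by total UMIs. Once scaled by TMM factors, ATP5MC2 passed too (0.98, edgeR adjusted p = 0.0111), while ATP5MC1 did not (0.59, edgeR adjusted p = 0.0666). ATP5MC3 was also the highest per length, at 22.8 CPM per kb of exon in DMSO, against 7.23 for ATP5MC1 and 5.33 for ATP5MC2.

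The partners of these genes that are encoded in mitochondrial DNA did not follow them. Of 6 such genes of complexes III to V, 5 fell with 0.4 µM rotenone (83.3%, against 42.2% of all genes tested). MT-CO1 did not pass the test. All mitochondrially encoded genes together gave 13.9% and 16.6% of the UMIs with rotenone in runs 5 and 6. In the 4 DMSO cultures they gave 3.57 to 14.4%, so the 5 falls do not stand for all mitochondrially encoded RNA. MT-ATP8, a complex V subunit, was at 111 and 53.9 CPM with rotenone, against 534, 254, 448 and 424 CPM in DMSO (log2 fold change -2.32 ± 0.36, edgeR adjusted p = 0.000161). MT-ATP6, the proton channel subunit, was at 328 and 149 CPM with rotenone, against 892, 306, 1177 and 781 CPM in DMSO (-1.72 ± 0.47, edgeR adjusted p = 0.00707), so its groups overlapped through DMSO run 4. MT-CO3, a core subunit of complex IV, was at 238 and 97.8 CPM with rotenone, against 717, 240.2, 1001 and 653 CPM in DMSO (-1.95 ± 0.50, edgeR adjusted p = 0.00486).

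MT-CO2, which receives electrons from cytochrome c, was at 383 and 145 CPM with rotenone, against 854, 262, 991 and 798 CPM in DMSO (-1.46 ± 0.49, edgeR adjusted p = 0.0216). MT-CYB, cytochrome b of complex III, was at 407 and 216 CPM with rotenone, against 1003, 234, 1229 and 806 CPM in DMSO (-1.39 ± 0.51, edgeR adjusted p = 0.0324). MT-CO1, which carries the oxygen-reducing centre, was at 5474 and 5579 CPM with rotenone, against 5849.9, 1696, 7677 and 5188 CPM in DMSO (0.11 ± 0.45, edgeR adjusted p = 0.841). With TMM factors the first 3 of these falls were still called, while MT-CO2 (-1.02, edgeR adjusted p = 0.104) and MT-CYB (-0.96, edgeR adjusted p = 0.14) were not. Cells above 20% mitochondrial UMIs had been removed, which limits how far these RNAs can vary.

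Of 40 genes needed to assemble the complexes, all tested, 9 were higher with 0.4 µM rotenone (22.5%, against 19.1% of all genes) and 8 lower (20%, against 42.2%). With TMM factors 13 were higher and 4 lower, so the balance of the list depends on the scaling. TMEM70, which helps to build the rotor of complex V, was at 37.3 and 44.5 CPM with rotenone, against 7.33, 4.97, 8.95 and 8.51 CPM in DMSO (2.42 ± 0.26, edgeR adjusted p = 8.68e-06), a larger change than in any subunit of the 40. LRPPRC, which stabilises mitochondrial messenger RNAs, was at 500.04 and 376 CPM with rotenone, against 159, 166, 116 and 169 CPM in DMSO (1.52 ± 0.22, edgeR adjusted p = 8.63e-05). ATPAF2, an assembly factor of the F1 part (1.66), COA6, a copper-handling factor of complex IV (1.40), and TTC19, which acts late on complex III (0.84), were higher too.

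Assembly factors of complex III that act with newly made cytochrome b went different ways. UQCC1 was at 41.6 and 23.9 CPM with rotenone, against 94.9, 112, 94.3 and 79.5 CPM in DMSO (-1.52 ± 0.26, edgeR adjusted p = 0.000321), and UQCC2 changed by -1.28 (edgeR adjusted p = 0.00137). UQCC3 was higher, at 6.21 and 6.58 CPM with rotenone, against 2.79, 2.93, 3.35 and 1.87 CPM in DMSO (1.18 ± 0.32, edgeR adjusted p = 0.00661). COA1, an early complex IV assembly factor, was at 75.8 and 51.2 CPM with rotenone, against 239, 278, 205 and 233 CPM in DMSO (-1.90 ± 0.24, edgeR adjusted p = 3.65e-05). CMC1, which binds newly made MT-CO1, changed by -1.75 (edgeR adjusted p = 8.99e-05), and SDHAF4, an assembly factor of SDHA, by -1.09 (edgeR adjusted p = 0.00428), a call that was lost with TMM factors (edgeR adjusted p = 0.0533).

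Of 10 further subunit genes, only 3 had counts enough to be tested and the others are mostly forms of muscle, lung or testis. NDUFA4, long listed with complex I and now placed in complex IV, was at 353 and 357 CPM with rotenone, against 99.9, 88.4, 112 and 116 CPM in DMSO (1.77 ± 0.19, edgeR adjusted p = 1.07e-05). ATP5MJ, a small complex V subunit, was at 42.5 and 34.3 CPM with rotenone, against 18.7, 12.0, 19.5 and 19.7 CPM in DMSO (1.12 ± 0.24, edgeR adjusted p = 0.00166). Of 5 carriers, 2 were called higher (40%, against 19.1% of all genes tested), the adenine nucleotide carrier SLC25A5 (1.02) and the phosphate carrier SLC25A3 (0.65). CYCS, cytochrome c itself, was not called (-0.33, edgeR adjusted p = 0.208).

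Of 9 regulators of respiratory genes, 6 were higher with 0.4 µM rotenone (66.7%, against 19.1% of all genes tested). PPARGC1A was lower (11.1%, against 42.2%). GABPA was at 57.0 and 126 CPM with rotenone, against 21.4, 26.6, 20.4 and 25.7 CPM in DMSO (1.96 ± 0.28, edgeR adjusted p = 7.65e-05). YY1 was at 202 and 196 CPM with rotenone, against 56.2, 42.4, 63.3 and 62.7 CPM in DMSO (1.82 ± 0.20, edgeR adjusted p = 1.34e-05). PPARGC1A, a coactivator of mitochondrial biogenesis, was at 227 and 161 CPM with rotenone, against 298, 391, 319.7 and 347 CPM in DMSO (-0.80 ± 0.23, edgeR adjusted p = 0.00904), a call that was lost with TMM factors (-0.34, edgeR adjusted p = 0.172). Among the members with a promoter window, 10 of the 15 with the GABPA letters rose (median log2 fold change 0.79), against 12 of the 17 without them (0.84), and 5 of the 8 with the NRF1 letters (0.76), against 17 of the 24 without (0.89).

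The members are short genes, with a median length of 11386.5 bases, against 27466 bases for 20015 protein-coding genes, and the fold change of all genes at 0.4 µM rotenone varied with length. Among tested genes of at least 10 CPM the median log2 fold change was 0.28 under 10 kb, -0.12 from 10 to 100 kb and -1.04 over 100 kb. The 18 members under 10 kb had a median of 0.77 and the 22 members from 10 to 100 kb one of 0.86. In the first class 12 of 18 members were called higher and 0 lower, against 34.0% and 19.1% of all such genes, and in the second 15 of 22 were higher and 2 lower, against 29.5% and 34.1%. No member was longer than 100 kb. The part of gene length in the members' change was not tested further.

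**Figure D3:**
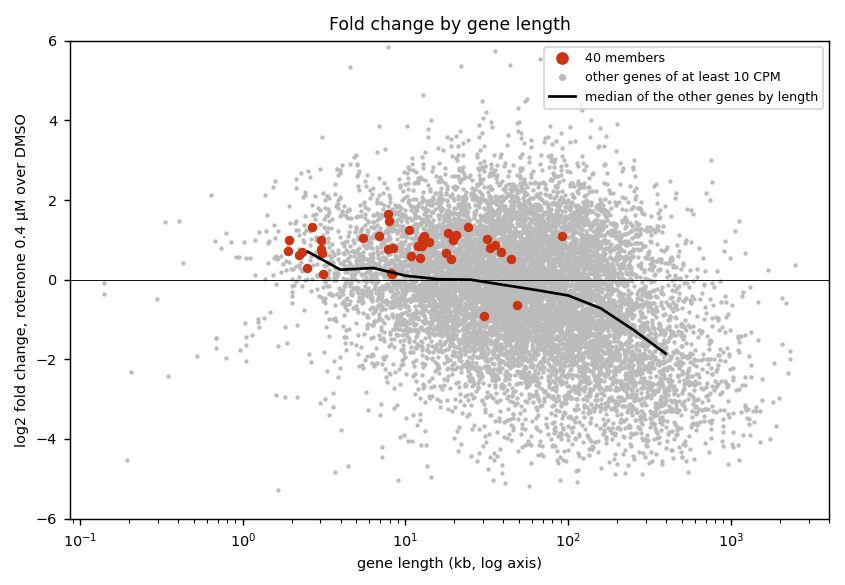
Log2 fold change at 0.4 µM rotenone over DMSO (vertical axis) against gene length in kb on a log axis, for the 40 members (red) and the other tested genes of at least 10 CPM (grey), with the median of the other genes in length bins of at least 20 genes (black line). The line falls with length, and 38 of the 40 members lie above the median of all tested genes (-0.56).

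Cell type markers are read against the 19.1% of all genes called higher and the 42.2% called lower with 0.4 µM rotenone. Of 10 hepatocyte markers 0 rose and 3 fell (30%), among them CYP3A4 (-2.79), while ALB did not pass the test (-0.09). The list summed to 15278 and 7584 CPM with rotenone in runs 5 and 6, against 13689 and 21920 CPM in DMSO of these runs. Over all 4 DMSO cultures it ran from 7441 to 21920 CPM. Of 7 mesenchymal markers 6 were tested and 5 fell, 3 with TMM factors, and the list summed to 51.6 to 53.2 CPM with rotenone and 121 to 239 CPM in DMSO. The 5 cycling markers summed to 524 and 713 CPM with rotenone in runs 5 and 6, against 195 and 86.1 CPM in DMSO of these runs. DMSO of run 3, a run without rotenone, reached 832 CPM. CCNB1 (2.03) and CDK1 (1.72) were called higher. The 6 cholangiocyte markers summed to 75.7 to 97.8 CPM with rotenone and 93.6 to 146 CPM in DMSO, the 6 immune and endothelial markers to 14.7 to 25.2 CPM with rotenone and 15.6 to 40.7 CPM in DMSO, and no marker was at 0 in both rotenone cultures. The 3 nuclear RNAs MALAT1, NEAT1 and KCNQ1OT1 summed to 19859 and 20212 CPM with rotenone, against 32040 to 50752 CPM in DMSO. The part of these shifts in the members' change was not tested.

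Run 5 held DMSO, 0.2 µM and 0.4 µM rotenone side by side, with 1 culture each and therefore no test. The 40 genes summed to 2115 CPM in DMSO, 2465 CPM at 0.2 µM and 3517 CPM at 0.4 µM. For 26 genes the level increased at each step, for 1, SDHC, it decreased at each step, and 13 took other courses, while 3462 of 19260 genes with at least 150 UMIs in the 3 cultures increased at each step. Over these 19260 genes the median log2 ratio to DMSO was -0.08 at 0.2 µM and -0.49 at 0.4 µM, against 0.21 and 0.69 for the 40 genes. The 95% intervals below are exact binomial intervals and cover counting error only.

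The complexes differed in the first step. All 11 genes of complex IV were higher at 0.2 µM than in DMSO (median log2 ratio 0.35), as were 8 of 9 of complex III (0.22), 3 of 4 of complex II (0.27) and 8 of 16 of complex V (-0.02), against 47.1% of the 19260 genes. In complex V, ATP5F1C was at 83.0 CPM in DMSO, 149 at 0.2 µM and 178 at 0.4 µM, so that most of its difference was there at the lower dose. ATP5MC3 took the other course, with 93.7 CPM in DMSO, 73.5 at 0.2 µM and 174 at 0.4 µM, and ATP5IF1 and ATP5MC1 were lowest at 0.2 µM. ATP5F1A was at 140 CPM in DMSO, 165 at 0.2 µM and 347 at 0.4 µM, where the log2 ratio of 0.4 over 0.2 µM was 1.07 (95% interval 1.05 to 1.10).

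From 0.2 to 0.4 µM, 35 genes were higher with an interval above 0 and 3 lower with an interval below 0, UQCRC2, UQCR11 and CYC1, all of complex III, against 34.9% and 51.2% of the 19260 genes. The median log2 ratio of this step over the 19260 genes was -0.21, so UQCR11 (-0.24) and CYC1 (-0.17) lay near the typical gene. UQCRC2 was at 182 CPM in DMSO, 185 at 0.2 µM and 107 at 0.4 µM, so it differed only at the higher dose (-0.79 for 0.4 over 0.2 µM, 95% interval -0.83 to -0.76). SDHC was at 37.1 CPM in DMSO, 26.4 at 0.2 µM and 26.2 at 0.4 µM, so it differed at the lower dose already and the second step was within counting error (-0.01, 95% interval -0.09 to 0.07). COX7A2L, at 27.2 CPM in DMSO, 48.6 at 0.2 µM and 47.1 at 0.4 µM, was the complex IV gene that did not differ between the doses beyond counting error (-0.04, 95% interval -0.10 to 0.02).

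**Figure D4:**
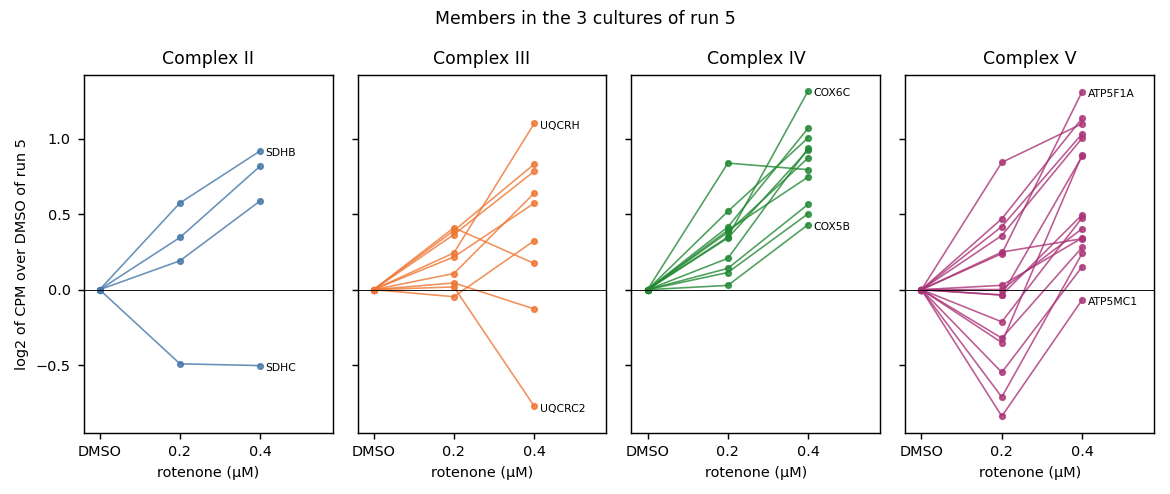
Log2 of CPM over the DMSO culture of run 5 (vertical axis) in the 3 cultures of run 5, DMSO, 0.2 and 0.4 µM rotenone (horizontal axis), 1 line per gene and 1 panel per complex. All 11 lines of complex IV lie above 0 at 0.2 µM, those of complex V spread to both sides, and UQCRC2 drops only at 0.4 µM.

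Set against all 4 DMSO cultures summed, rotenone at 0.2 µM had 5 members at least 1.5-fold higher, COX7A2L, ATP5F1C, COX6A1, SDHB and ATP5F1B, and 2 at least 1.5-fold lower, ATP5MC1 and ATP5IF1. All 40 members passed the filter of 50 UMIs and 10 CPM in the higher condition. The same folds were reached by 30.9% and 28.3% of the 11865 genes counted, so the members' shares were below those of all genes. Their median log2 ratio was 0.29, against 0.13 for all genes. Against DMSO of run 5 alone, 2 members were 1.5-fold higher and 2 lower.

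None of the 40 genes was called at 8 of the 9 other conditions with 2 cultures, and in these almost no other gene was. The share of all genes called was 0% at 0.2 µM cycloheximide, at 0.25, 2.5 and 25 µM etoposide and at 0.001 and 0.01 µM tunicamycin, 0.00502% at 2 µM cycloheximide and 0.00538% at 0.1 µM tunicamycin. DESeq2 also called 0 members there. At an unadjusted edgeR p under 0.05 the members counted 8 at 0.2 µM and 0 at 2 µM cycloheximide (3.74% and 7.31% of all genes), 4, 0 and 2 at 0.25, 2.5 and 25 µM etoposide (2.58%, 1.3% and 4.41%), and 3, 7 and 1 at 0.001, 0.01 and 0.1 µM tunicamycin (1.69%, 2.92% and 3.64%). The members' medians ran from -0.38 (0.2 µM cycloheximide) to 0.14 (2 µM cycloheximide) on the log2 scale.

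At 20 µM cycloheximide 1 member was called, against 6.52% of 18706 genes higher and 13.2% lower. It was CYC1, at 28.9 and 114 CPM with cycloheximide in runs 3 and 4, against 25.1, 19.0, 37.4 and 28.4 CPM in DMSO runs 3 to 6 (log2 fold change 1.31 ± 0.42, edgeR adjusted p = 0.047). The run 3 value lay within the DMSO values and the run 4 value far above them, so the call rests on 1 culture of 37 cells. It was lost with run as a block and without the DMSO culture of run 3, 4 or 6.

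The medians near 0 at 2 and 20 µM cycloheximide hid 2 runs that went opposite ways. At 2 µM the 40 genes summed to 1438 CPM in run 3 and 2763 CPM in run 4, against 1785 and 1554 CPM in DMSO of these runs. At 20 µM they summed to 1201 CPM in run 3 and 2633 CPM in run 4. Relative to DMSO of its own run, 34 of 40 genes were lower at 2 µM in run 3 and 38 higher in run 4, and at 20 µM 37 were lower in run 3 and 38 higher in run 4. The median log2 ratios were -0.41 and 1.08 at 2 µM and -0.64 and 0.96 at 20 µM. The DMSO culture of run 4 held 3.57% mitochondrially encoded UMIs and the cycloheximide cultures of that run 12.6% and 14.01%. The 10 hepatocyte markers summed to 6322 CPM at 2 µM in run 3, against 10059 CPM in DMSO of that run, and to 14975 CPM in run 4, against 7441 CPM in DMSO. At 20 µM they summed to 1988 CPM in run 3 and 4656 CPM in run 4, below DMSO in both runs, and 9 of the 10 were called lower (13.2% of all genes). The part of these shifts in the ratios was not tested.

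At 2 µM cycloheximide the median ratio of complex II was 0.10 in run 3 and 0.33 in run 4, while that of complex IV was -0.58 in run 3 and 1.13 in run 4. At 20 µM complex II was at -0.62 in run 3 and 0.17 in run 4, so it was split there as complex IV was (-0.65 in run 3 and 0.87 in run 4). COX8A, a small complex IV subunit, was at 13.2 and 42.0 CPM with 2 µM cycloheximide in runs 3 and 4, against 21.0 and 11.4 CPM in DMSO of these runs. UQCRC2 was the member with the lowest ratio in run 4 at both doses (-0.21 and -0.22). At 0.2 µM cycloheximide, in contrast, both runs were lower, with 34 and 31 of 40 genes below DMSO of their run and medians of -0.25 and -0.23, and 25 genes were lower in both. The run 4 culture at 0.2 µM held 2.29% mitochondrially encoded UMIs, near the 3.57% of DMSO in that run. At 2 and 20 µM the run 4 cultures held 12.6% and 14.01%. The part of this difference in the contrast between doses was not tested.

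Etoposide gave sums of 1385 and 1771 CPM at 0.25 µM, 1673 and 2397 CPM at 2.5 µM and 1515 and 1734 CPM at 25 µM in runs 3 and 4. Tunicamycin gave 1656 and 1532 CPM at 0.001 µM, 1732 and 1436 CPM at 0.01 µM and 1525 and 1874 CPM at 0.1 µM. All 3 etoposide doses and 0.1 µM tunicamycin were below DMSO in run 3 and above it in run 4, while the 2 lower tunicamycin doses were below it in both. No etoposide or tunicamycin sum fell outside 1385 to 2397 CPM, and every one lay under both values with 0.4 µM rotenone.

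**Figure D5:**
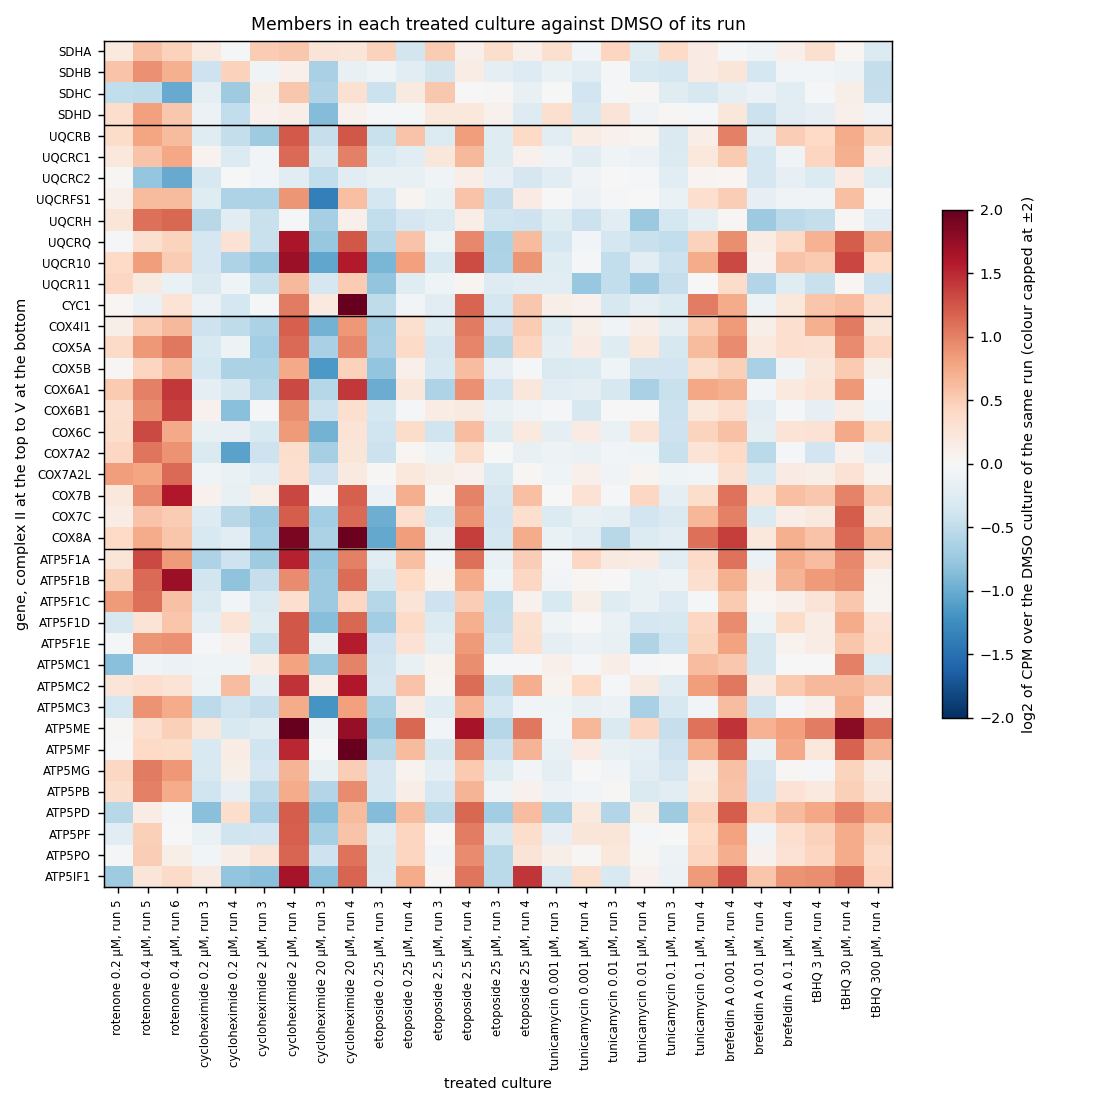
Log2 ratio of CPM in each treated culture (columns) to the DMSO culture of the same run, for each of the 40 genes (rows, complex II at the top), in red where higher and blue where lower, with the colour capped at ±2. The 2 columns with 0.4 µM rotenone are red for most genes and blue for SDHC and UQCRC2, and cycloheximide at 2 and 20 µM is blue in run 3 and red in run 4.

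Brefeldin A and tBHQ had 1 culture per dose, all in run 4, and no test. At 0.001, 0.01 and 0.1 µM brefeldin A the 40 genes summed to 2334, 1390 and 1782 CPM, against a mean of 1896 ± 278 CPM in DMSO (SD, n = 4). Members at least 1.5-fold higher than DMSO summed over its cultures numbered 0 at each dose (1.39%, 4.59% and 1.15% of all genes), and those at least 1.5-fold lower 0, 23 and 2 (9.18%, 6.7% and 3.56%). In that sum each DMSO culture counts by its UMIs, most in run 5 (33404488) and fewest in run 4 (3417334). The 40 genes summed to 2115 CPM in DMSO of run 5 and 1554 CPM in DMSO of run 4. Against DMSO of run 4 alone the counts differed. Then 23 of 40 members were 1.5-fold higher at 0.001 µM (7.88% of all genes), 0 of 35 that passed the filter at 0.01 µM (15.3%) and 7 of 39 at 0.1 µM (8.24%), and those 1.5-fold lower were 0, 2 and 0 (8.4%, 15.4% and 9.67%).

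At 3, 30 and 300 µM tBHQ the sums were 1864, 2368 and 1659 CPM. Members 1.5-fold higher numbered 0, 2 and 0 (3.62%, 2.09% and 1.79% of all genes), the 2 being COX7C and ATP5MC1, and members 1.5-fold lower 4, 0 and 5 (3.72%, 6.45% and 9.19%). Of the 40 members 39 passed the filter at 30 µM and all 40 at the other doses. Against DMSO of run 4 alone 8 of 40 members were 1.5-fold higher at 3 µM (16.1% of all genes), 23 of 37 at 30 µM (11.1%) and 3 of 35 at 300 µM (7.05%), with 0 lower at each dose, so these counts turn on which DMSO cultures are used. COX7C, for one, was at 89.4 CPM with 30 µM tBHQ, against 59.1 CPM in DMSO summed and 38.6 CPM in DMSO of run 4.

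Levels also differed widely between the members in DMSO, compared here per length (CPM per kb of exon, by GENCODE 44). ATP5F1B was first at 80.1, COX8A second at 46.6 and UQCRC2 next at 39.8, and UQCRB was last at 3.33 CPM per kb. These values count all annotated exons of a gene, used or not.

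Cells in medium without vehicle and with 50 µM troglitazone are given as levels only, because the labels name no medium group and other troglitazone doses. Cells in medium gave 1516, 2080 and 2138 CPM for the 40 genes in runs 3, 5 and 6, and those with troglitazone 1287, 1428, 2108 and 2786 CPM in runs 3 to 6. DMSO itself ran in the same direction, with 1785 and 1554 CPM in runs 3 and 4 and 2115 and 2130 CPM in runs 5 and 6.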

How the data were processed

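Single-cell RNA of HepaRG cells was prepared with the Parse Evercode split-pool method and aligned to GRCh38, per the labels. The authors deposited whole-number UMI counts per gene and cell, not normalized, for 62703 genes and 12976 cells, with a table that names each cell's treatment, dose and run. The 8 sublibraries hold aliquots of 1 pool and were joined. The dissociation buffer contained actinomycin D and anisomycin. A limit of 20% on the UMIs from mitochondrial genes removed 4570 cells and left 8406, none of which fell under the minimum of 500 detected genes. The loss was uneven. It left 110 of 231 cells with 0.4 µM rotenone in run 6 and 413 of 493 in run 5, against 93 of 97 and 311 of 393 in DMSO of these runs. With all cells 30 members were called higher and 2 lower at that dose, against 18.2% and 41.9% of all genes tested. Doublets were not called. Counts were summed per culture, and cultures of at least 30 kept cells were used, 31 in comparisons and 7 for levels, while 9 were left out. No cell was named for rotenone at 0.8 µM, a dose the study used on another platform.

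Conditions with at least 2 cultures were compared with the 4 DMSO cultures by edgeR 4.0.16 (quasi-likelihood test, filterByExpr, scaling by total UMIs, Benjamini-Hochberg threshold 0.05 over all genes tested) in R 4.3.3. Conditions with 1 culture were set against the summed DMSO UMIs, with exact binomial 95% intervals for counting error, and genes with at least 50 UMIs and 10 CPM were counted at 1.5-fold. The alternatives were TMM factors, DESeq2 1.42.0 size factors and its test, totals without mitochondrially encoded genes, no filter on low counts, all cells, run as a block, each culture left out, and all conditions in 1 fit. Using only DMSO of the same runs was added after seeing the data. In data simulated for 0.4 µM rotenone over 19660 genes, 12, 56, 100 and 100% of 50 genes changed 1.5-, 2-, 4- and 8-fold were recovered, with 9 false calls. The simulation gave all genes the same dispersion, changed few genes, evenly up and down, and held no difference between runs. In the measured comparison 19.1% of genes were called higher and 42.2% lower, so these rates need not hold there.

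The members and gene lists were chosen with earlier results of these data known. In each complex the 3 largest changes past the test, the gene with the highest CPM in DMSO and genes against the majority were given in full, with the ATP5MC genes and the 6 mitochondrially encoded partners. Of each other list, up to 2 genes per direction of at least 10 CPM were named. Other members, UQCC3, CYCS, ALB, MALAT1 and COL1A2 were named after their values were seen. Gene positions and lengths came from GENCODE 44, which held 62625 of the gene IDs.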

Additional observations from a re-analysis of the deposited data

Results flagged for a closer look

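The summed CPM of the 40 genes went opposite ways in the 2 runs for 6 conditions, each as the log2 ratio to DMSO of the same run, and the difference between runs was not tested. With cycloheximide it was -0.312 in run 3 and 0.83 in run 4 at 2 µM, and -0.572 in run 3 and 0.761 in run 4 at 20 µM. With etoposide it was -0.366 in run 3 and 0.189 in run 4 at 0.25 µM, -0.0938 in run 3 and 0.626 in run 4 at 2.5 µM, and -0.237 in run 3 and 0.159 in run 4 at 25 µM. With 0.1 µM tunicamycin it was -0.228 in run 3 and 0.27 in run 4. All 6 run 4 ratios share 1 DMSO culture, that with 3.57% mitochondrially encoded UMIs.

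Among cultures outside the comparisons, the medium culture of run 6 (2138 CPM) and the 50 µM troglitazone culture of run 6 (2786 CPM) were above the highest DMSO culture (2130 CPM). None of 45 groups of 4 to 10 cultures held a culture far enough from the others to be listed.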

How the results depend on the processing

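At 0.4 µM rotenone, where 27 members were higher and 2 lower, the number called lower was 0 with TMM factors, with DESeq2 size factors and with the DESeq2 test, and 1 with totals without mitochondrially encoded genes, without the filter on low counts, with run as a block, with DMSO of the same runs only, with both of these together, and with all conditions in 1 fit. It was 1 to 2 in the fits that left out 1 culture each, where 23 to 32 were higher. The number called higher was 15 with run as a block, with all DMSO cultures or those of the same runs alike. Beside these, 38 or 39 of the 40 genes lay above the median of all genes in each of the settings run. ATP5MC1, not called, turned to -0.0885 with run as a block, -0.0882 with DMSO of the same runs and -0.0886 with both. Leaving out 1 culture gave -0.043 to 0.30 for UQCR11 and -0.0093 to 0.30 for ATP5PD, neither of them called. At 0.2 µM cycloheximide, 1 member was called lower with run as a block. At 20 µM cycloheximide, 0 members were higher with totals without mitochondrially encoded genes, with run as a block, with DMSO of the same runs and with both, and leaving out 1 culture gave 0 to 2 higher and 0 to 4 lower, the 4 without the run 4 culture. Against DMSO of run 4 only, the members' median log2 ratio was 0.72, -0.18 and 0.20 at 0.001, 0.01 and 0.1 µM brefeldin A and 0.26, 0.73 and 0.17 at 3, 30 and 300 µM tBHQ, against 0.20, -0.63, -0.32, -0.19, 0.22 and -0.31 with all DMSO cultures. The cause of these differences was not tested. Depth limits the smallest cultures, where a member had as few as 7 UMIs. Small changes can be missed, since the simulation, which was simpler than the data, recovered 12% of 1.5-fold ones.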
